A study of Mus musculus with 12 samples.

Results

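The NK homeobox genes Nkx6-1, Nkx6-2, Nkx6-3, Nkx1-2, Nkx2-2, Nkx2-5 and Nkx2-9 were followed through bulk RNA-seq of mouse totipotent-like stem (TPS) cells and extended pluripotent stem (EPS) cells. The 7 genes, of 55401 in the files, were chosen by family membership and because Nkx6-2 and Nkx6-3 had been seen among the genes most reduced in TPS cells in these same libraries. The TPS against EPS values of the 7 genes are therefore given as a description, without a test. The 12 libraries were 2 technical replicates for each of 3 lines per cell type, with 13676051 to 21821707 counts per library. TPS cells were kept in the CPEC condition, that is CD1530 (an agonist of the retinoic acid receptor RARγ), VPA (an inhibitor of histone deacetylases), EPZ004777 (an inhibitor of the histone methyltransferase DOT1L) and an inhibitor of the kinase GSK3. EPS cells were kept in LCDM medium, and the labels put both cell types on feeder cells. The sources do not say whether the sequenced TPS lines came from EPS cells or from 2-cell embryos, nor which genotype the lines carried. Levels are given as CPM, the count scaled to the size of its library after TMM adjustment, with the technical replicates of a line summed and the line as the replicate.

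NK homeobox genes encode transcription factors that bind DNA through a homeodomain and mostly set regional identity in the embryo. Nkx6 factors are repressors that act with Groucho/TLE corepressors in the ventral neural tube, where Sonic hedgehog signalling sets the domains of Nkx2-2, Nkx6-1, Nkx6-2 and Olig2. They also act in endoderm, since Nkx6-1 is a factor of pancreatic beta cells and Nkx6-3 is used in the stomach. Nkx2-5 is a core factor of the heart, Nkx2-9 is a ventral neural and notochord-region relative of Nkx2-2, and Nkx1-2 marks the caudal epiblast and its neuromesodermal progenitors.

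Reads of one Nkx gene could most easily be mistaken for those of another in the homeobox, the stretch of 180 bases that encodes the homeodomain, which was compared for 6 of the members. In Nkx6-2 it lies in exons 2 and 3 of 3 on the minus strand of chromosome 7 of GRCm38, at chr7:139581881-139582018 and chr7:139581647-139581688, and all of it is coding sequence. Over the 15 pairs of the 6 genes, read from the GENCODE M21 transcripts, the homeobox was 52.8% to 82.8% identical. The longest stretch of identical bases shared anywhere between the compared transcripts of a pair was 30 bases, between Nkx2-5 and Nkx2-9. Reads were 100 bases long. Nkx6-2 and Nkx6-3 share a split of the homeobox into 138 bases in exon 2 and 42 bases in exon 3, whereas in the other 4 genes it lies whole in exon 2.

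Sequence upstream of the start site is shown for 2 genes, that of Nkx6-2, which differed between the cell types, and that of Nkx1-2, which differed among lines. Each stretch is the 250 bases before the start site in the RefSeq promoter table (GRCm38.p6, minus strand of chromosome 7), at chr7:139582798-139583047 for Nkx6-2 and chr7:132599638-132599887 for Nkx1-2. Capitals mark each CG, the pair of bases that can carry DNA methylation.
Nkx6-2: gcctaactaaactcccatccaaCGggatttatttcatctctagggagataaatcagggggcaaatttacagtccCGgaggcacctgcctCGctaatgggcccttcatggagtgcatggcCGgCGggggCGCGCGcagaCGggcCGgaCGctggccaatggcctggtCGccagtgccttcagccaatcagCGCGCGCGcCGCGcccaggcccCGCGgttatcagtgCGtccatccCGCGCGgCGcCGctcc
Nkx1-2: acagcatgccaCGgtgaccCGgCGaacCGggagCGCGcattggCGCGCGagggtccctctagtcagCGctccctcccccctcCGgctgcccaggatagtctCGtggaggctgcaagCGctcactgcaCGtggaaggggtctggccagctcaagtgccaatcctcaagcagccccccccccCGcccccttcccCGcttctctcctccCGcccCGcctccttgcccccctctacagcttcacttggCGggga
The Nkx6-2 window holds 26 CG pairs and the Nkx1-2 window 19, against a median of 6 over 32536 promoter windows of the same length. As many as 26 were found in 9.68% of those windows, and as many as 19 in 19.9%. Of the other members in the table, Nkx6-1 had 30, Nkx2-9 had 13, and Nkx2-2 and Nkx2-5 had 8 each. Exact matches on either strand were searched for AGGTCA and GGGTCA (half-sites of retinoic acid receptors), CTTTGA and CTTTGT (cores bound by TCF/LEF factors of Wnt signalling), CAAGTG (a core bound by NK2 factors) and TTAATT (a core bound by Nkx6 factors), none of which overlap each other in the matches below. These are held by 14.0%, 11.7%, 13.9%, 16.5%, 11.5% and 10.3% of all windows, in that order. The Nkx1-2 window holds GGGTCA once, beginning 236 bases before the start on the strand opposite to the printed one. It holds CAAGTG 2 times, beginning 101 bases before the start on the printed strand and 13 bases before it on the opposite strand. The Nkx2-2 window holds CAAGTG at 197 bases and the Nkx2-5 window CTTTGA at 184 bases before the start. No match to these 6 letter strings was found in the windows of Nkx6-1, Nkx6-2 and Nkx2-9.

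The labels were first checked against marker genes. Zscan4c, a gene of the 2-cell stage, had 72.6 to 106 CPM in the TPS lines and at most 0.0588 CPM in an EPS line, and Zfp352, another such gene, had 1.59 to 2.77 CPM and no count, in that order. Pou5f1, the pluripotency factor Oct4, was counted in both, at 253 to 338 CPM in TPS and 437 to 689 CPM in EPS lines. Genes of fibroblasts, the usual feeder cell, were counted in both too. The summed level of 16 such genes was 3420 to 6100 CPM in TPS lines and 330 to 1370 CPM in EPS lines. By edgeR 11 of the 16, or 68.8%, were called higher in TPS lines, against 14.4% of all 17468 genes tested. The median of all 16 log2 fold changes was 2.00. That count fell to 3 without TPS line 1, 4 without TPS line 3, 6 without EPS line 1, 3 without EPS line 2 and 7 without EPS line 3. Of these genes the lowest, Twist2, had 0.424 CPM in EPS line 1, and no marker of the list was at 0 in any line. The part of feeder RNA in the values below was not tested.

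Nkx6-2 and Nkx6-3 were high in EPS lines and low in TPS lines, Nkx2-9 was the other way round at 1.07 to 2.69 CPM in TPS lines, Nkx1-2 and Nkx2-5 spread more widely among the TPS lines than the means of the cell types differed, and Nkx6-1 and Nkx2-2 were near the limit of detection. Of the 7 genes, 5 passed the filter on low counts and were fitted with the 17468 genes tested. Nkx6-1 and Nkx2-2 did not pass. In a bulk sample, fewer cells that express a gene and less RNA of it per cell cannot be told apart.

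**Figure D1:**
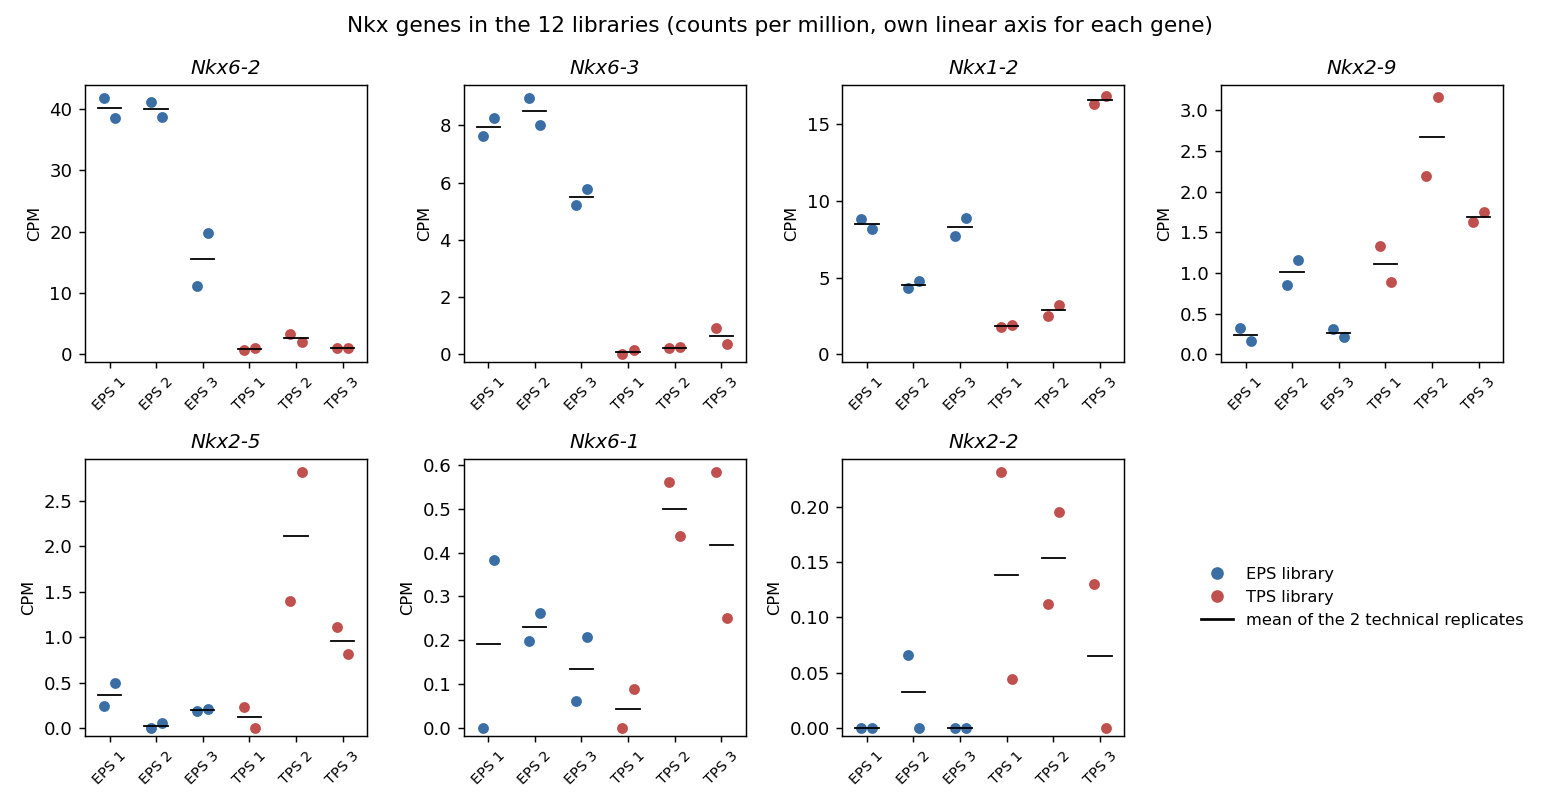
CPM (vertical axis, linear, with its own range for each gene) of the 7 Nkx genes in the 12 libraries, by line along the horizontal axis. Points are libraries and bars the means of 2 technical replicates. Nkx6-2 and Nkx6-3 sit above 5 CPM in every EPS library and below 4 CPM in every TPS library, and Nkx1-2 is above 16 CPM in TPS line 3 alone.

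Nkx6-2 (ENSMUSG00000041309.17, minus strand, chr7:139579376-139582797) encodes an Nkx6 repressor of ventral neural progenitors that is also used in oligodendrocytes. In the TPS libraries it had 13 and 23 counts in line 1, 58 and 42 in line 2, and 16 and 16 in line 3. In the EPS libraries it had 527 and 705 counts in line 1, 625 and 739 in line 2, and 178 and 383 in line 3. The lowest EPS library thus had more counts than the highest TPS library, and the EPS lines themselves fell into a pair near 40 CPM and a lower line 3. By line the level was 0.898, 2.59 and 1.02 CPM in TPS lines and 40.2, 40.1 and 16.0 CPM in EPS lines, with means of 1.5 ± 0.944 (SD, n = 3) and 32.1 ± 14.0 (SD, n = 3). The log2 fold change, TPS minus EPS, was -4.41 (standard error 0.554), that is 21.3-fold lower in TPS lines. Without TPS line 2, the TPS line with most Nkx6-2, it was -5.07, and without TPS line 1 it was -4.14. With all lines Nkx6-2 ranked 3 of 17468 from the lowest fold change, which is how it came to be chosen.

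The EPS lines were not uniform for Nkx6-2. EPS line 3 was 2.51-fold below the next EPS line, and 45 of the 17468 tested genes, or 0.258% of them and Nkx6-2 included, lay as far below the other EPS lines there on the log2(CPM + 1) scale. Its technical replicates also differed, with 11.2 and 19.8 CPM. Scaled by library totals, without TMM adjustment, the second was 1.69-fold the first. The 95% interval of the ratio of the first to the second on that scale, 0.494 to 0.710 from counting alone, did not hold 1. Among the 8078 tested genes with at least as many counts in that line, 81 had technical replicates as far apart, and the median ratio was 1.09. With the first technical replicate of every line alone or the second alone, Nkx6-2 remained higher in each EPS line than in each TPS line. EPS line 3 was also the lowest EPS line for Nkx6-3.

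Nkx6-3 (ENSMUSG00000063672.7, plus strand, chr8:23153269-23158948) encodes the Nkx6 factor of the gastric epithelium. In the TPS libraries it had 0 and 3 counts in line 1, 4 and 5 in line 2, and 14 and 6 in line 3. The EPS libraries had 96 and 151 counts in line 1, 136 and 153 in line 2, and 83 and 112 in line 3. Here too the groups did not overlap, and all 3 pairs of EPS technical replicates lay within counting error of each other. By line it had 0.0748, 0.233 and 0.635 CPM in TPS and 8.06, 8.50 and 5.55 CPM in EPS lines, with means of 0.314 ± 0.289 and 7.37 ± 1.59 (SD, n = 3 each). TPS line 1 was at the level of 3 counts, the floor below which a level is not told from 0. The log2 fold change was -4.57 (standard error 0.676), or 23.8-fold lower in TPS lines, at rank 2 of 17468 from the lowest. Without TPS line 3, the TPS line with most Nkx6-3 counts, it was -5.56, and without TPS line 1 it was -4.09.

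Nkx6-1 (ENSMUSG00000035187.10, minus strand, chr5:101658139-101664996) encodes the factor best known from pancreatic beta cells and motor neuron progenitors. It had 0 to 10 counts in a TPS library and 0 to 7 in an EPS library, and no line held more than 19. By line it had 0.0499, 0.492 and 0.413 CPM in TPS and 0.228, 0.235 and 0.142 CPM in EPS lines. The groups overlapped, and with so few counts no fold change was fitted. Set per kilobase of exon, the EPS level was 16.8 ± 7.33 CPM per kb for Nkx6-2, 3.29 ± 0.712 for Nkx6-3 and 0.0644 ± 0.0165 for Nkx6-1 (SD, n = 3 lines), an order with no overlap between neighbours. In TPS lines the same scale gave 0.787 ± 0.495, 0.140 ± 0.129 and 0.101 ± 0.0751 CPM per kb, and Nkx6-3 and Nkx6-1 did not differ there beyond their spread.

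The direction of Nkx6-2 and Nkx6-3 has to be read against its background. Of the 17468 tested genes, 21.7% were called by edgeR at an adjusted p-value under 0.05, 14.4% higher and 7.34% lower in TPS lines. Every TPS line lay below every EPS line in 19.1% of the tested genes and above in 23.5%, and among the 5 members that passed the filter this was so for Nkx6-2 and Nkx6-3 and for Nkx2-9, respectively. Nkx6-2 and Nkx6-3 were picked on this contrast and the others with its results known, so nothing is read from those counts.

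**Figure D2:**
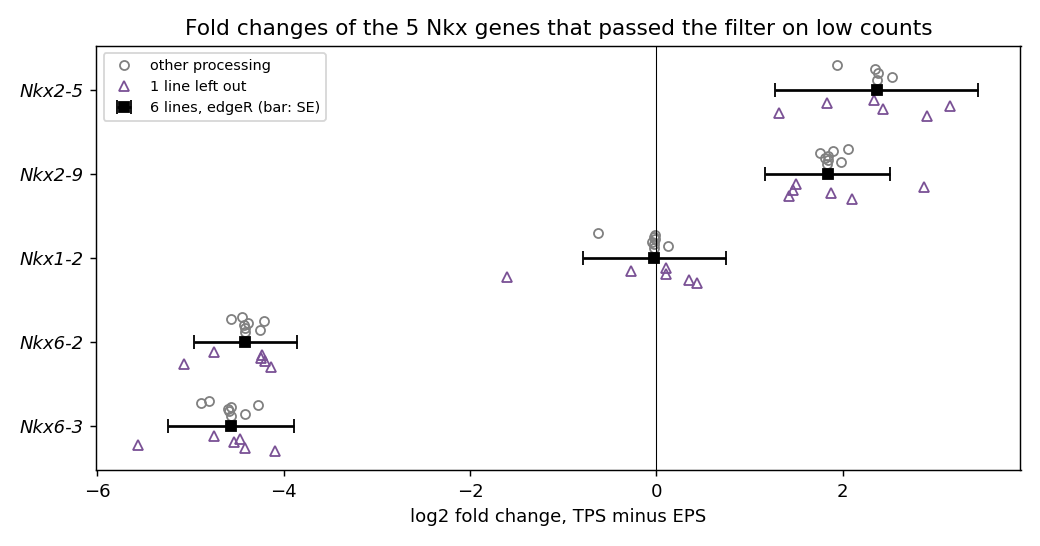
Log2 fold changes, TPS minus EPS (horizontal axis), of the 5 Nkx genes that passed the filter on low counts. Squares are the edgeR values over 6 lines with standard errors, circles other ways of processing and triangles fits without 1 line. Values ran from -5.07 to -4.14 for Nkx6-2 and from -5.56 to -4.09 for Nkx6-3, and from -1.60 to 0.44 for Nkx1-2.

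Nkx1-2 (ENSMUSG00000048528.7, minus strand, chr7:132594878-132599637) encodes a factor of the caudal epiblast. It had 31 and 43 counts in TPS line 1, 45 and 66 in line 2, and 251 and 268 in line 3. EPS libraries had 111 and 149 counts in line 1, 65 and 91 in line 2, and 123 and 171 in line 3. By line this was 1.85, 2.87 and 16.5 CPM in TPS and 8.48, 4.59 and 8.36 CPM in EPS lines. TPS line 3 therefore lay above all EPS lines, and the other TPS lines below all of them. The means, 7.07 ± 8.17 and 7.14 ± 2.21 CPM (SD, n = 3 each), were nearly equal and the log2 fold change was -0.02 (standard error 0.766). Without TPS line 3 it was -1.60. With library totals in place of TMM factors the sign changed, to 0.13.

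The level of Nkx1-2 in TPS line 3 was seen in both technical replicates, 16.3 and 16.8 CPM. It was 5.73-fold above the next TPS line. On the log2(CPM + 1) scale its gap of 2.17 was the second of 17468 tested genes for that line, after Gt(ROSA)26Sor, a non-coding transcript, with 2.83. Wnt8a, a Wnt ligand of the caudal epiblast and primitive streak, was the fourth with 1.62. Of the first 10 genes, all but Nkx1-2 and Wnt8a were highest among EPS lines in EPS line 2. Gt(ROSA)26Sor had 120 CPM there, against 2.12 and 1.56 CPM in EPS lines 1 and 3. What TPS line 3 and EPS line 2 share was not tested. Nkx1-2 lies within the annotated span of Fgfr2, a fibroblast growth factor receptor gene on the same strand whose start site lies at -523.7 kb, upstream of that of Nkx1-2. Fgfr2 had 10.9 ± 2.85 CPM in TPS and 1.64 ± 1.22 CPM in EPS lines (SD, n = 3 each) and was called higher in TPS lines by edgeR (log2 fold change 2.73, adjusted p = 0.0128). Its difference between the cell types was not seen in Nkx1-2. The antisense gene Gm16764, which overlaps Nkx1-2 over 2251 bases, had no count in any library.

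Nkx2-9 (ENSMUSG00000058669.7, minus strand, chr12:56611389-56613284) had 23 and 20 counts in TPS line 1, 39 and 65 in line 2 and 25 and 28 in line 3. EPS libraries had 4 and 3 counts in line 1, 13 and 22 in line 2 and 5 and 4 in line 3. By line it had 1.07, 2.69 and 1.68 CPM in TPS and 0.228, 1.03 and 0.256 CPM in EPS lines, so that EPS line 2 lay just below TPS line 1. The 95% counting intervals of these 2 lines, 0.717 to 1.43 and 0.776 to 1.45 CPM, overlap. The means were 1.82 ± 0.818 and 0.505 ± 0.455 CPM (SD, n = 3 each), and the log2 fold change was 1.84 (standard error 0.672). Without EPS line 2, which was 4.02-fold above the next EPS line, it was 2.87.

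Nkx2-5 (ENSMUSG00000015579.5, minus strand, chr17:26838664-26845009) had 4 and 0 counts in TPS line 1, 25 and 58 in line 2 and 17 and 13 in line 3. EPS libraries had 3 and 9 counts in line 1, 0 and 1 in line 2 and 3 and 4 in line 3. By line it had 0.0998, 2.15 and 0.952 CPM in TPS and 0.392, 0.0294 and 0.199 CPM in EPS lines. TPS line 1 lay within the range of the EPS lines, and the highest TPS line was 21.5-fold above the lowest. The log2 fold change was 2.37 with a standard error of 1.09, with 1.32 without TPS line 2 and 3.15 without EPS line 1 as the extremes of the fits run. The technical replicates of TPS line 2, at 1.40 and 2.82 CPM, differed 2.01-fold. Their ratio had a counting interval of 0.298 to 0.807, and 16 of 13183 tested genes with as many counts had replicates as far apart.

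Nkx2-2 (ENSMUSG00000027434.11, minus strand, chr2:147177546-147194243), a factor of ventral interneurons and pancreatic islets, had 13 counts over the 6 TPS libraries and 1 over the 6 EPS libraries. No library had more than 4. Its overlapping antisense gene Nkx2-2os had no count, and the other overlapping antisense gene, 6430503K07Rik, had 0.00832 CPM on average in TPS lines. Over the 7 members, 22 pairs of technical replicates had 20 or more counts together, and in 19 of them the counting interval of the ratio held 1. The exceptions were Nkx6-2 in TPS line 2 and EPS line 3 and Nkx2-5 in TPS line 2. Among the other Nkx genes read here, Nkx2-4, a forebrain and pituitary relative, was the one tested. It had 1.08 ± 0.541 CPM in TPS and 0.635 ± 0.109 CPM in EPS lines (SD, n = 3 each), with a log2 fold change of 0.77 (edgeR adjusted p = 0.271). Nkx1-1, Nkx2-1, Nkx2-3 and Nkx3-2 averaged at most 0.317 CPM in either group.

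Genes next to the members were read as well. Within 100 kb of the 7 genes, 53 other annotated genes had a row in the files and 17 were tested. By edgeR 2 were called, both higher in TPS lines, Fgfr2 and Inpp5a, against 14.4% called higher and 7.34% lower over all tested genes. Nkx6-1 and Nkx2-9 had no tested neighbour. An unadjusted p-value under 0.05 was reached by 2 higher and 2 lower, and DESeq2 called 2 higher and 1 lower. Inpp5a, an inositol phosphatase gene on the opposite strand, shares 277 bases with the 3′ end of Nkx6-2. It had 35.6 ± 5.24 CPM in TPS and 20.7 ± 3.50 CPM in EPS lines (SD, n = 3 each; log2 fold change 0.78, edgeR adjusted p = 0.0264), the opposite direction to Nkx6-2. Inpp5a lost its call without TPS line 2 or 3 or EPS line 2 or 3 (edgeR adjusted p up to 0.0798), and Fgfr2 kept it whichever line was left out. The log2 fold change of Fgfr2 ran from 2.37 without EPS line 1 to 3.50 without EPS line 2. The library protocol does not describe strand marking, so reads in the shared stretch cannot be assigned to one of the pair. Near Nkx6-3, the edgeR log2 fold changes of the tested neighbours Ank1, Gpat4, Gins4 and Golga7 were 1.08, 0.16, -0.18 and -0.14, with adjusted p-values of 0.282 to 0.455.

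Genes with the pattern most like that of a member were sought among 13242 or 13243 protein-coding genes of at least 1 CPM, by Pearson correlation of log2(CPM + 1) over the 6 lines. The correlation is a description over 6 points that share libraries and, for Nkx6-2 and Nkx6-3, the same split between cell types. For Nkx6-2 the leading genes were Pim3 (r = 0.9983), a serine/threonine kinase, then Tmem211 and Gcnt4. Pim3 had a log2 fold change of -1.55 and 299, 291 and 195 CPM in EPS lines, so that EPS line 3 was lowest among EPS lines for it too. For Nkx6-3 they were Eppk1 (r = 0.998), an epiplakin that binds keratin filaments, then Ift172, a subunit of the ciliary transport complex, and Klf4, a pluripotency factor. Klf4 had 90.6 to 121 CPM in TPS and 468 to 830 CPM in EPS lines. At least 0.95 was reached by 361 genes for Nkx6-2 and 349 for Nkx6-3, and by 67 for Nkx2-9, 22 for Nkx2-5 and 7 for Nkx1-2. For Nkx1-2 the first was Gadd45a (r = 0.9765), a DNA damage response gene with 30.5 CPM in TPS line 3 against 16.7 and 18.2 in the other TPS lines, followed by Kin and Tsn. For Nkx2-5 it was Crabp2 (r = 0.9816), a retinoic acid binding protein gene with 13.3 CPM in TPS line 2 against 3.77 and 8.03, followed by Cdc42ep1 and Slc13a4. For Nkx2-9 it was Arhgef17 (r = 0.9917), followed by Nudt10 and Map7d1.

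The pathways in which these genes work were then read from 7 lists, each set against the 14.4% called higher and 7.34% called lower over all tested genes, whose median log2 fold change was near 0 (-0.00376). That background moves with the lines too, from 2509 higher and 1282 lower calls with all lines to 1617 and 493 without TPS line 3, 602 lower without TPS line 1, and 1617 to 2234 higher and 493 to 1047 lower over the 6 fits that left out 1 line. With library totals in place of TMM factors 745 genes were called lower. Of 24 genes of Shh signalling and ventral neural tube patterning, 18 were tested, 6 were called higher and 3 lower in TPS lines by edgeR, and the median log2 fold change was 1.21. The 3 lower ones were Olig2, Gli1 and Gli2. Olig2, which shares ventral progenitors with the Nkx6 genes, fell from 54.8 ± 20 CPM in EPS to 4.88 ± 4.69 CPM in TPS lines (SD, n = 3 each; log2 fold change -3.50, edgeR adjusted p = 0.019). Gli1, a transcriptional target and effector of hedgehog signalling, fell from 22.4 ± 5.83 to 3.81 ± 2.45 CPM (SD, n = 3 each; edgeR adjusted p = 0.00966), and Gli2, its activating relative, had a log2 fold change of -0.98. The largest rises were in Pax3, a dorsal neural gene, with a log2 fold change of 3.62, Dbx2 with 3.11 and Irx3 with 2.75. These 3 averaged 0.72 to 3.39 CPM in TPS lines. No EPS line had more than 0.147 CPM of Pax3 or 0.163 of Dbx2, so both passed the filter on low counts through the TPS lines. Smo, the signal transducer, and Gli3, a repressor-forming relative of Gli1 and Gli2, also rose, with log2 fold changes of 1.14 and 1.28. Shh itself was below the filter, at 0.0249, 0.725 and 0.19 CPM in the TPS lines and no more than 0.0294 CPM in an EPS line. The count of 9 called genes fell to 5 without TPS line 2 and to 4 without EPS line 2. In edgeR fits that each left out 1 of the 6 lines, Gli1, Gli2 and Smo were called every time. The log2 fold change of Olig2 ran from -4.57 without TPS line 3 to -2.99 without TPS line 1. That of Gli1 was -2.56 with all lines, -3.22 without TPS line 3 and -2.26 without TPS line 1. Olig2 lost its call without TPS line 2 or EPS line 2 (adjusted p up to 0.0576), Irx3 without TPS line 3 or EPS line 2 (up to 0.0577) and Gli3 without any of TPS lines 2 and 3 and EPS lines 1 and 2 (up to 0.0764). Pax3 was called only without TPS line 1 (otherwise up to 0.0725) and Dbx2 in none of the 6 fits (0.0599 to 0.134).

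**Figure D3:**
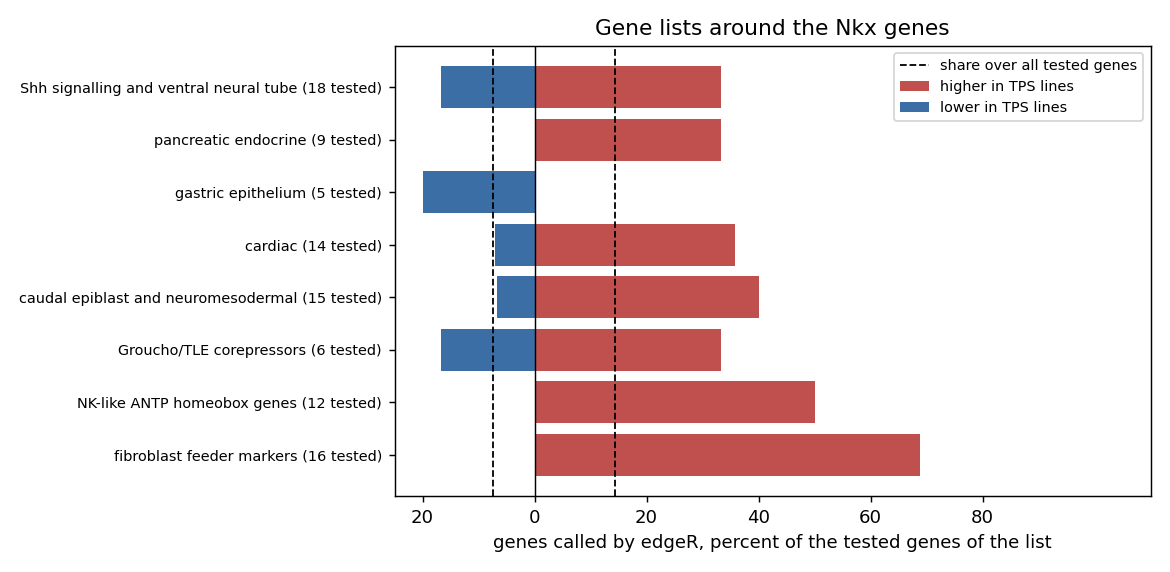
Genes called by edgeR as a percentage of the tested genes of each list (horizontal axis), to the right of 0 for higher and to the left for lower in TPS lines. Dashed lines are the shares over all 17468 tested genes, 14.4% higher and 7.34% lower. Each list had 5 to 18 tested genes, so 1 gene is a large step.

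The list of pancreatic endocrine genes, as reported here, had 21 members, of which 9 were tested and 3 called, all higher in TPS lines by edgeR. The median over the 9 was 1.63 on the log2 scale. An unadjusted p-value under 0.05 was reached by 5 higher and 1 lower, and DESeq2 called 4 and 1. The called genes were Neurog3, Mafa and Sox9. Mafa, a factor of mature beta cells, had 15.3 ± 2.92 CPM in TPS and 1.93 ± 0.433 CPM in EPS lines (SD, n = 3 each; log2 fold change 2.99, edgeR adjusted p = 0.00177). Neurog3 and Sox9 averaged 0.56 and 1.73 CPM in TPS lines. Neurog3 had no count in EPS lines 1 and 2 and 0.0284 CPM in EPS line 3. It therefore passed the filter on low counts through the TPS lines, where it is high. Its call and its part in the median are given as a description. Leaving out any 1 line kept the edgeR call of Neurog3 and Mafa, whereas Sox9 was called only without EPS line 2 (adjusted p up to 0.102 in the others). The hormone genes Ins1 and Ins2 and the islet gene Iapp had no count in any library, and Pdx1, the founding factor of the pancreas, averaged 0.144 CPM in TPS lines.

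Of 16 genes of the gastric epithelium 5 were tested, and Pgc, which encodes a pepsinogen of the stomach, was called lower in TPS lines by edgeR. It had 3.87 ± 0.519 CPM in TPS and 24.9 ± 8.79 CPM in EPS lines (SD, n = 3 each; log2 fold change -2.69, edgeR adjusted p = 0.00287). Higher calls came to 0 by edgeR, with 1 gene at an unadjusted p-value under 0.05, and DESeq2 called 1 higher and 2 lower. The count of called genes was 2 without TPS line 1 and 2 without EPS line 3, and Pgc was called in each of the 6 edgeR fits that left out 1 line. Gkn1, Gkn2 and Tff1, secreted proteins of the gastric surface, had no count in any library. Tff2 and Muc6, also of the gastric mucosa, were below the filter but counted in every line, Tff2 at 0.0249 to 0.0777 CPM in TPS and 0.0882 to 0.142 CPM in EPS lines and Muc6 at 0.104 to 0.317 and 0.0284 to 0.163 CPM, in that order. Atp4a, a subunit of the gastric proton pump, had 0.759 ± 0.459 CPM in TPS and 1.24 ± 0.666 CPM in EPS lines (SD, n = 3 each; edgeR adjusted p = 0.465).

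All 6 genes of the Groucho/TLE family list were tested. Tle3, the most abundant in EPS lines, was lower in TPS lines by edgeR, at 138 ± 20.8 against 257 ± 56.3 CPM (SD, n = 3 each; log2 fold change -0.89, adjusted p = 0.0199). Tle1 and Tle6 were called higher, with log2 fold changes of 0.66 and 1.71. Tle2, Tle4 and Aes were not called. The count of 3 fell to 1 without TPS line 1, without TPS line 3 and without EPS line 1. Tle6 was called by edgeR whichever line was left out, Tle3 without TPS line 2 or EPS line 3 alone (adjusted p up to 0.0621 otherwise) and Tle1 without EPS line 2 alone (up to 0.0972). Of 21 other homeobox genes of the NK-like class 12 were tested and 6 called higher by edgeR, with a median log2 fold change of 1.73. They were Lbx1, Barx2, Dbx2, Emx2, Hlx and Hhex. No EPS line had more than 0.0853 CPM of Lbx1, 0.142 of Barx2 or 0.163 of Dbx2. These genes therefore passed the filter on low counts through the TPS lines, where they are high. Genes as low in both cell types were not tested, so these calls and the median are given as a description. Lbx1, a muscle precursor and dorsal neural gene, had 1.00 ± 0.663 CPM in TPS against 0.0393 ± 0.0431 CPM in EPS lines (SD, n = 3 each; log2 fold change 4.54, edgeR adjusted p = 0.0131). Lower calls came to 0 by edgeR, with 1 gene at an unadjusted p-value under 0.05, and to 0 by DESeq2. The count of 6 was 3 without TPS line 2, 3 without TPS line 3, 2 without EPS line 1 and 1 without EPS line 2. Lbx1 was called by edgeR whichever line was left out and Hlx except without EPS line 2 (adjusted p = 0.0576). Barx2 was called in 3 of those 6 fits (adjusted p up to 0.0766), Emx2 in 2 (up to 0.0742), and Dbx2 and Hhex in 0 (up to 0.134 and 0.131).

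The caudal epiblast list, which holds the genes of the setting in which Nkx1-2 is known, had 18 members and 15 tested. By edgeR 6 were called higher and 1 lower in TPS lines. The median over the tested genes was 0.95 on the log2 scale. Wnt8a (log2 fold change 5.76, adjusted p = 0.0119), Cyp26a1, a retinoic acid degrading enzyme (4.39, adjusted p = 0.015), and Cdx2, a caudal homeobox gene (4.21, adjusted p = 0.0448), had the largest rises among the genes called by edgeR. No EPS line had more than 0.206 CPM of Cyp26a1, so it passed the filter on low counts through the TPS lines. Fgf17 was the one called lower, with a log2 fold change of -2.12. The count of 7 fell to 4 without TPS line 2, 3 without EPS line 1 and 4 without EPS line 2. Wnt8a was called by edgeR whichever line was left out and Cyp26a1 except without EPS line 1 (adjusted p = 0.0502). Cdx2 lost its call without TPS line 2 or 3 or EPS line 1 or 2 (up to 0.135), and Fgf17 without TPS line 2 or EPS line 1 or 2 (up to 0.0829). Over these fits the log2 fold change ran from 4.71 to 6.83 for Wnt8a and from 3.48 to 5.20 for Cyp26a1. It ran from 3.13 to 5.58 for Cdx2 and from -2.77 to -1.73 for Fgf17. The lowest values of Wnt8a and Cdx2 were those without TPS line 3, and that of Cyp26a1 the one without TPS line 2. By line, 9 of the 15 tested genes were highest in TPS line 3, the line with most Nkx1-2, whereas 28.6% of all tested genes were highest there. T, the mesoderm factor Brachyury, had 1.95, 17.0 and 29.6 CPM in the TPS lines, and Cdx2 had 0.674, 3.65 and 9.36 CPM. Wnt8a had 7.53, 14.6 and 46.8 CPM. TPS line 2 was nearer to line 3 than to line 1 for T but not for Nkx1-2.

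The cardiac list had 20 members and 14 tested, of which 5 were called higher and 1 lower in TPS lines by edgeR. The median over the tested genes was 1.83 on the log2 scale. Actc1, a cardiac actin gene (7.13, adjusted p = 0.047), Myh6, a cardiac myosin gene (3.43, adjusted p = 0.00788), and Gata6 (2.74, adjusted p = 0.0088) had the largest rises in log2 fold change among the genes called by edgeR. Hand1, a heart and limb factor that was tested but not called, had 5.0 (edgeR adjusted p = 0.0504). No EPS line had more than 0.163 CPM of Tnnt2, one of the genes called higher, or 0.256 of Hand1. Both passed the filter on low counts through the TPS lines, where they are high. The calls and the median of this list are therefore given as a description. Smarcd3, a chromatin remodelling subunit, was called lower with a log2 fold change of -1.5. The count of 6 fell to 3 without TPS line 2, 3 without TPS line 3, 3 without EPS line 1 and 2 without EPS line 2. Myh6 and Gata6 were called by edgeR whichever line was left out. Actc1 was called only without TPS line 1 (adjusted p up to 0.132 otherwise), with a log2 fold change of 4.00 without TPS line 2, and Smarcd3 only without EPS line 3 (up to 0.117 otherwise). By line, 11 of the 14 tested genes were highest in TPS line 2, the line with most Nkx2-5, against 35.2% of all tested genes. TPS line 2 was also the highest TPS line for 4 of 5 tested gastric, 7 of 12 NK-like, 5 of 9 pancreatic and 8 of 18 Shh list genes, and for 5 of 15 caudal and 1 of 6 Groucho/TLE genes. Actc1 had 0.0748, 51.2 and 4.13 CPM in the TPS lines and Hand1 had 0.274, 12.7 and 1.71 CPM. The fibroblast list was distributed otherwise, with 14 of its 16 genes highest in TPS line 1 against 36.2% of all tested genes. That was the TPS line with the least Nkx6-2, Nkx6-3, Nkx1-2, Nkx2-5 and Nkx2-9. The genes of a list share the same 3 lines, so their likeness by line is a description.

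**Figure D4:**
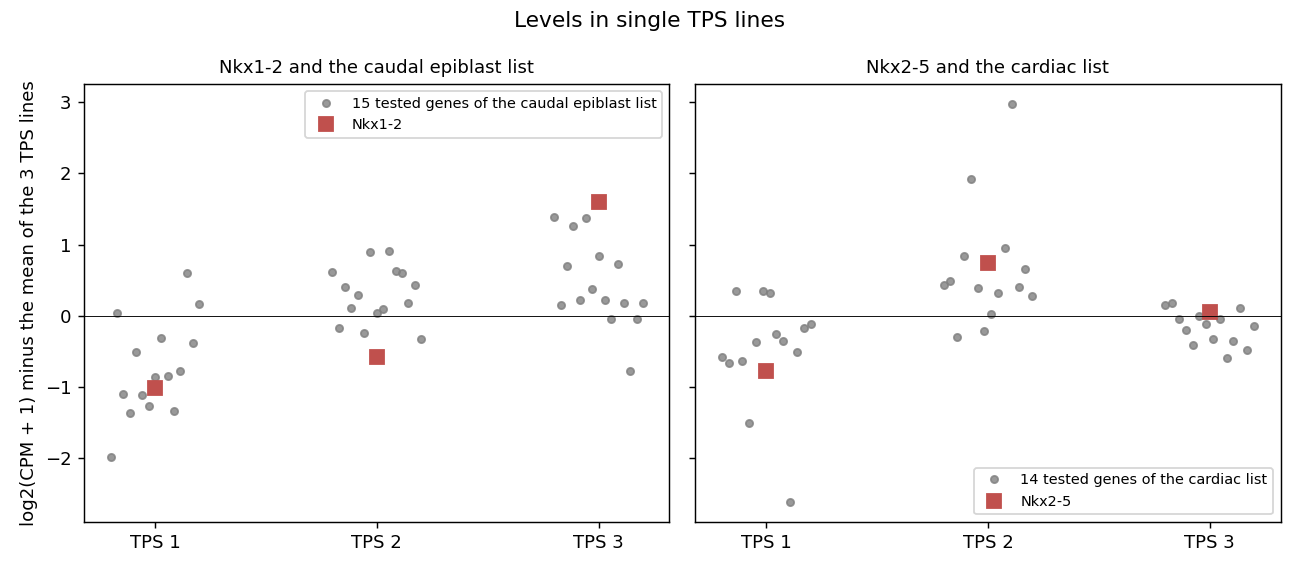
Level in each TPS line (horizontal axis) as log2(CPM + 1) minus the mean of the 3 TPS lines (vertical axis). Left, Nkx1-2 (square) and the 15 tested caudal epiblast genes (grey points). Right, Nkx2-5 (square) and the 14 tested cardiac genes. Of the caudal genes 9 are highest in TPS line 3, and of the cardiac genes 11 in TPS line 2.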

How the data were processed

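The authors trimmed reads with fastp 0.19.7 and mapped them to GRCm38.p6 with STAR 2.7.3a, per the paper's methods and the submitters' processing notes, and deposited raw counts per gene. The counter, annotation and use of strand are not given in the sources used here. Of 55401 identifiers, 55141 matched GENCODE M21 without version. Technical replicates were summed and 3 TPS lines compared with 3 EPS lines by edgeR 4.0.16 (R 4.3.3), with TMM factors, filterByExpr, the quasi-likelihood test and Benjamini-Hochberg adjustment over 17468 genes (threshold 0.05). The fit was also tested on simulated data, but the outcome is not given here and nothing is read from it. Intervals are exact 95% intervals and, like the floor of 3 counts, cover counting error only. Ratios of technical replicates and their intervals were scaled by library totals, without TMM adjustment. P-values set the TPS minus EPS difference against the spread between these lines, which are taken as independent. Whether they are independent was not tested. DESeq2 1.42.0 and the other alternatives are described in the closing section. The members and lists were chosen with earlier results of these data known. Named genes were the members, genes within 100 kb, the 3 genes most alike each member, and in each list the called genes with the 3 largest changes per direction. Genes at 0, and others named for their role or level by line, were chosen after their values were seen. Some items, among them a further Nkx gene and a gene of the pancreatic list, are not reported here.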

Additional observations from a re-analysis of the deposited data

How the results depend on the processing

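Across the alternatives in which each was fitted, Nkx6-2 and Nkx6-3 kept a negative and Nkx2-5 and Nkx2-9 a positive log2 fold change, and the range of Nkx1-2, -1.60 to 0.44, spanned 0. Library totals in place of TMM factors moved the median over all tested genes to 0.14 (log2) and the genes called lower from 1282 to 745. Deviations of same-numbered lines from the means of their groups correlated at 0.024, -0.116 and 0.0423. Their mean was -0.0166, against 0.00923 for differently numbered lines. These values cannot show whether a TPS line came from one of the EPS lines, so no pairing is read from the numbers. With the line number as a replicate block, 721 genes were called lower, and the lists gave 1 Groucho/TLE, 2 NK-like and 3 fibroblast genes. With the 12 libraries as samples, which treats technical replicates as independent, 4067 genes were higher and 3610 lower, and 2 gastric genes were called. Leaving out 1 line gave 1617 to 2234 genes higher and 493 to 1047 lower, the lowest of each without TPS line 3. It gave 4 to 8 called genes for the Shh list, 2 to 3 for the pancreatic, 1 to 2 for the gastric, 2 to 6 for the cardiac, 3 to 9 for the caudal, 1 to 2 for the Groucho/TLE, 1 to 4 for the NK-like and 3 to 11 for the fibroblast list, with fewer samples in each fit. Technical replicate 1 alone gave 1 pancreatic, 2 gastric, 3 cardiac and 1 NK-like gene, and technical replicate 2 alone 3 NK-like genes. The gastric list had 2 called genes with RLE factors, 3 with DESeq2 and 3 without the filter on low counts, and the pancreatic list 5 with DESeq2 and 5 without that filter, against 3. The cause of these changes was not tested beyond the smaller fits. Nkx6-1 and Nkx2-2 did not pass the filter on low counts, so no fold change is given for them. The cause of their low counts was not tested.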
